A study of Mus musculus with 24 samples.

Results

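A set of 10 genes of the actin cytoskeleton, led by Actb, was followed across 4 sorted CD4 T cell subsets and 2 treatments. They are the actins Actb and Actg1, the monomer-binding proteins Pfn1, Tmsb4x and Tmsb10, the severing proteins Cfl1 and Scin, the filament-branching subunit Arpc2, the filament-binding Coro1a and the GTPase Rhob. All 10 were found by gene ID among the 39056 genes of the count table, and all 10 passed the low-count filter that left 18789 genes for testing. The genes were chosen by role and by measured values, since Actb was higher with treatment in these same libraries. The treated against control values of the 10 genes are therefore given as a description, without a test, while the subsets were compared with tests.

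Actin filaments grow from monomers (G-actin), turn over at their pointed ends and carry cell shape, migration and the contact between a T cell and an antigen-presenting cell. Profilin and the thymosins hold monomers ready, cofilin and gelsolin family proteins cut filaments, and the Arp2/3 complex starts branches. When monomers are used up, cofactors of the transcription factor SRF are released to the nucleus, and SRF in turn drives actin genes through a DNA motif called the CArG box.

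Cells of every group were taken from female NZBWF1/j animals, a lupus-prone hybrid. Treated mice received recombinant mouse OX40L (ligand of the T cell costimulatory receptor OX40) and mouse JAG1 (a ligand of Notch receptors), each at 2 mg/kg by intraperitoneal injection, once a week for 3 doses, starting at 23 weeks of age. PBS was given to the control mice, of the same age and sex, and cells were sorted in week 26. Conventional T cells (Tconv) were sorted as CD4+CXCR5-GITR-, regulatory T cells (Treg) as CD4+CXCR5-GITR+, follicular helper cells (TFH) as CD4+CXCR5+ PD1-high with no or low GITR, and follicular regulatory cells (TFR) as CD4+CXCR5+ PD1-high GITR-high. There were 3 libraries of total RNA, depleted of ribosomal RNA, in all 8 groups. Nothing in the labels ties a library to a mouse. The p-values thus reflect only how far libraries of a group lie apart, which may be technical.

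Library totals ran from 31.8 to 53.8 M counts in treated mice and from 24.7 to 33.2 M in control Tconv and Treg cells. Control TFH libraries held 2.54 to 15.2 M and control TFR libraries 4.85 to 9.62 M. Mitochondrially encoded genes took 1.85 to 3.17% of counts in treated and 9.496 to 16.9% in control libraries. Foxp3, the regulatory lineage factor, averaged 473 and 354 CPM (a gene's counts relative to the scaled library total) in control Treg and TFR cells. It averaged 5.81 and 47.3 CPM in control Tconv and TFH cells. Cxcr5 averaged 121 and 53.7 CPM in control TFH and TFR cells against 1.83 CPM in control Tconv cells. For the groups named, this is the order that the sort gates imply. Longer marker lists set these control subsets less far apart. For 5 follicular markers together, the mean was 1060 CPM in control Treg, near the 1216 CPM of control TFH cells. It was 1370 CPM in control TFR and 258 CPM in control Tconv cells. For 5 regulatory markers, control TFH cells had 994 CPM and control Tconv cells 140 CPM. Control Treg and TFR cells had 2033 and 2354 CPM. Kidney transcripts stood out in 6 libraries. The summed podocyte markers (glomerular cells) reached 1154 CPM in control Tconv 1, 1152 CPM in control Tconv 2, 1372 CPM in treated TFH 3 and 529 CPM in treated TFR 1. Proximal tubule markers also stood out in treated Treg 3 (67.5 CPM) and control TFH 3 (21.04 CPM). Each comparison was repeated without the 4 libraries with high podocyte sums. Below, kidney libraries, or libraries with kidney transcripts, means these 4. Separately, each comparison was repeated without all 6, the libraries with proximal tubule transcripts.

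Promoter sequences of 9 of the 10 genes, all but Actb, were matched in RefSeq (GRCm38.p6), as the 250 bases before the start of transcription. A CArG box, searched on both strands, lay in 1 of the 9, Actg1, with its first base 90 bases before the start (position -90), and in 1.47% of 32851 promoter entries. The motif GGGCGG, also read on either strand, lay in 8 of the 9 and in 32.7% of all entries. These 3 stretches are shown because they belong to the second cytoplasmic actin, to the profilin gene and to the gene with the widest range among the 10. They are written 5′ to 3′ on the minus strand, with the CArG box and every GGGCGG or its reverse complement in capitals. A match describes letters in this window and not a bound site.
Actg1 promoter, chr11:120348543-120348745, bases -250 to -48: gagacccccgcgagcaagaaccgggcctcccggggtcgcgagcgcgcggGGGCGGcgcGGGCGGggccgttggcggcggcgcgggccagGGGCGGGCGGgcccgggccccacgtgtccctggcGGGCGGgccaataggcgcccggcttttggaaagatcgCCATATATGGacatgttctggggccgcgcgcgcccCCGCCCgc
Pfn1 promoter, chr11:70654651-70654900, bases -250 to -1: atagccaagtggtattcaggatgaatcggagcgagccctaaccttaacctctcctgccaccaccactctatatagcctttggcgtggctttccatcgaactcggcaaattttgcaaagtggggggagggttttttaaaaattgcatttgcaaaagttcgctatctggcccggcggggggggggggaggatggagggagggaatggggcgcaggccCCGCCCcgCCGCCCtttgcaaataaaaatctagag
Scin promoter, chr12:40134229-40134478, bases -250 to -1: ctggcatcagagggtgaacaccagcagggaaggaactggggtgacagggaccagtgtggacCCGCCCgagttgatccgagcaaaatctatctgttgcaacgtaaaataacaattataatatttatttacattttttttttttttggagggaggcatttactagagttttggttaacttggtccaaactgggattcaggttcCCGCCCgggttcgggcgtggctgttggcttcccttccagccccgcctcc

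Every library of treated mice held more Actb transcript than every library of control mice, in each subset. Actb (ENSMUSG00000029580.14, chromosome 5, 142903115 to 142906754, minus strand, mm10) encodes beta-actin, the main cytoplasmic actin of leukocytes. In Tconv cells Actb was at 8682, 8078 and 8312 CPM in treated and 2887, 2774 and 2765 CPM in control libraries (libraries 1 to 3). In Treg cells it was at 7493, 7681 and 6831 CPM in treated and 2774, 2685 and 2640.04 CPM in control libraries. The lowest treated library, Treg 3, had more than 2 times the level of the highest control library, and the 12 control values fell into a higher pair of groups, Tconv and Treg, and a lower pair, TFH and TFR. In TFH cells Actb was at 7758, 7205 and 7591 CPM in treated and 1896, 2187 and 2076 CPM in control libraries. In TFR cells it was at 7472, 8485 and 8314 CPM in treated and 2109.7, 2007 and 2242 CPM in control libraries. The log2 fold change (log2FC, treated over control, ± standard error) was 1.57 ± 0.072 in Tconv, 1.44 ± 0.071 in Treg, 1.87 ± 0.072 in TFH and 1.93 ± 0.072 in TFR cells. Ordered by mean, the treated groups ran Tconv, TFR, TFH and Treg, and neighbours in that order overlapped.

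Most of the 10 genes were higher in treated mice, in the contrast that chose them. In Tconv cells 8 of 10 had all treated libraries above all control libraries, a pattern that 27.5% of all tested genes showed. The count was 8 of 10 in Treg cells (27.4% of all genes), 8 of 10 in TFH cells (28.5%) and 10 of 10 in TFR cells (33%), and none of the 10 was lower without overlap in any subset, where 15.4, 19, 6.81 and 10.4% of all genes were, in the same order of subsets. Nothing is read from these counts, since treatment chose the genes. The median log2FC of the 10 was 1.005 in Tconv, 0.61 in Treg, 1.19 in TFH and 1.18 in TFR cells, beside 0.020, 0.094, 0.42 and 0.40 over all genes. Together the 10 genes made up 1.61 ± 0.0410% of scaled counts in treated and 0.683 ± 0.0346% in control Tconv cells (mean ± SD, n = 3). The share was 1.33 ± 0.0658% against 0.667 ± 0.0102% in Treg, 1.28 ± 0.0571% against 0.523 ± 0.0240% in TFH and 1.44 ± 0.0911% against 0.531 ± 0.0260% in TFR cells. In such bulk samples, a different make-up of cells and a different amount of RNA per cell cannot be told apart. Of 8 general T cell markers, 8, 3, 3 and 7 passed the test as higher in treated Tconv, Treg, TFH and TFR cells and none as lower. Of the 5 follicular markers, 3, 1, 2 and 1 passed as higher and 1, 2, 3 and 3 as lower. For the 5 regulatory markers it was 3, 2, 0 and 2 higher and 1, 1, 2 and 0 lower. Beside these, 6.89, 5.17, 16.5 and 15.6% of all genes passed as higher and 3.05, 3.56, 5.86 and 6.39% as lower. Depth, the mitochondrial share and treatment ran together in these libraries and cannot be told apart.

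**Figure D1:**
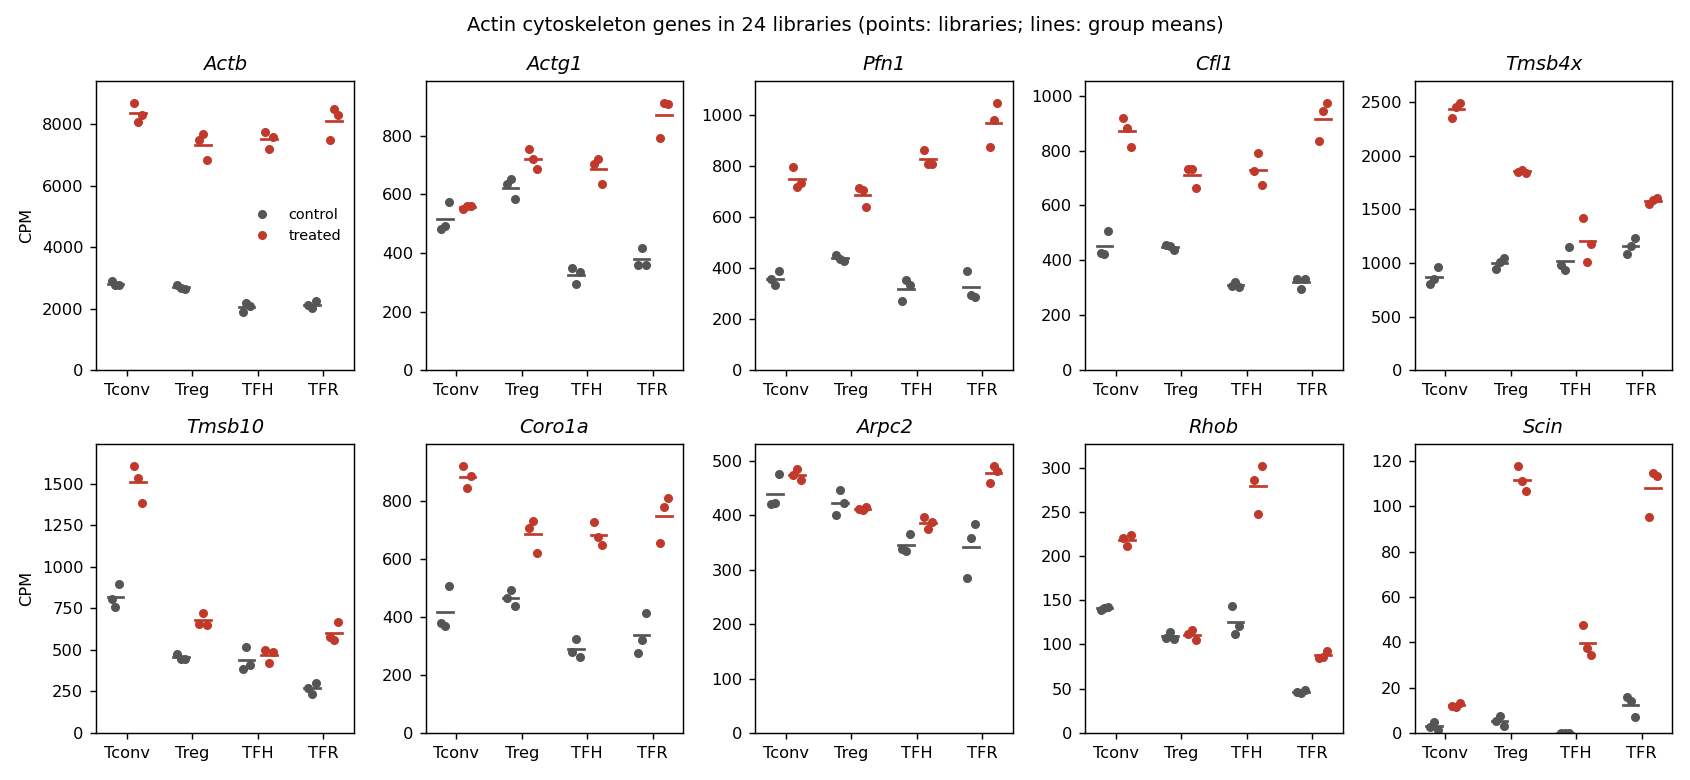
Each panel shows 1 gene, with the level in CPM on the vertical axis (linear, from 0) and the 4 subsets on the horizontal axis. Points are the 24 libraries, grey for control and red for treated mice, and lines are group means. Actb separates the treatments in every subset, whereas Rhob is lowest in control TFR cells and Scin is highest in treated Treg and TFR cells.

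Actg1, which encodes gamma-actin and differs from beta-actin in a few residues near its start, was higher in treated mice mainly in the 2 follicular subsets. It lies on chromosome 11 (ENSMUSG00000062825.15, 120345690 to 120348542, minus strand). In Tconv cells Actg1 was at 549.7, 559.9 and 560.2 CPM in treated and 484, 493 and 574 CPM in control libraries. In TFH cells Actg1 was at 704, 721 and 636 CPM in treated and 350.1, 294 and 334 CPM in control libraries. In Tconv cells the groups overlapped, with control Tconv 3 above every treated library, and in TFH cells they were far apart. Treg libraries had 756, 721 and 686 CPM with treatment and 634, 652 and 583 CPM without. TFR libraries had 794, 911 and 909.8 and 361, 416 and 360.4 CPM. The log2FC was 0.11 ± 0.088 in Tconv, 0.21 ± 0.088 in Treg, 1.07 ± 0.089 in TFH and 1.201 ± 0.089 in TFR cells. The Tconv value was -0.045 without the 2 control libraries with kidney transcripts. Differences between these treatment effects were not tested. Actin genes resemble one another and have many processed copies, so reads may have been split between them, and values of both actins are uncertain to that extent.

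Per kilobase of exon, Actb exceeded Actg1 5.43 ± 0.587 times in control and 14.9 ± 0.695 times in treated Tconv cells (mean ± SD, n = 3). In Treg cells the ratio was 4.31 ± 0.204 in control and 10.1 ± 0.408 in treated mice. The ratio was 6.31 ± 1.01 and 10.9 ± 0.967 in TFH cells and 5.59 ± 0.717 and 9.21 ± 0.138 in TFR cells, again control first. Every treated library had a higher ratio than every control library, from 9.07 upward against 7.38 and below. A ratio within a library does not depend on how libraries were scaled.

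**Figure D2:**
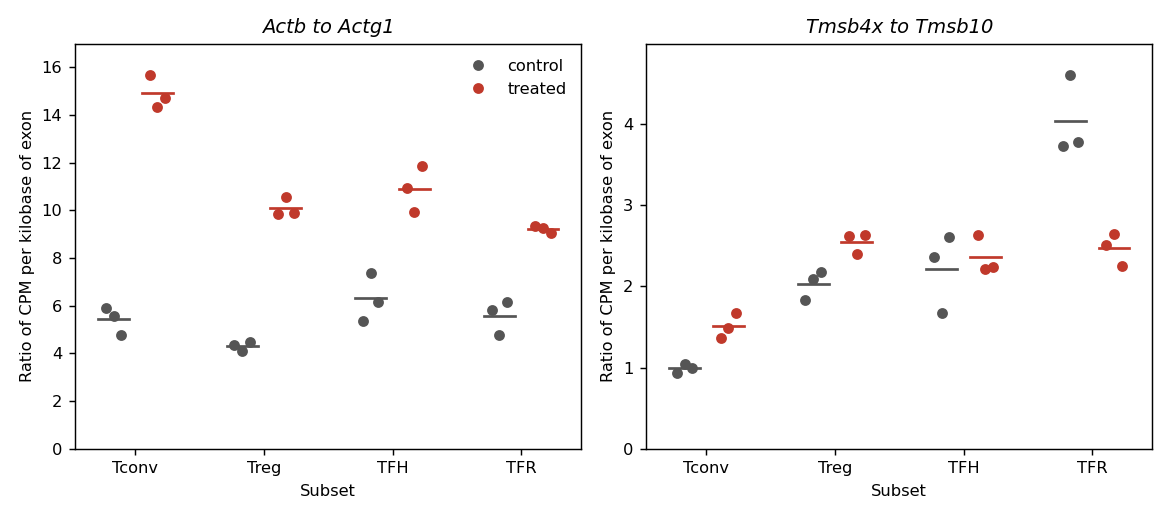
Ratio of 2 genes within each library, in CPM per kilobase of exon on both sides, for Actb to Actg1 (left) and Tmsb4x to Tmsb10 (right), with a linear vertical axis from 0. Points are libraries and lines are means of 3. The actin ratio is higher in all treated libraries, whereas the thymosin ratio is lowest in control Tconv and highest in control TFR libraries.

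Treated libraries lay above control libraries in all 4 subsets for Pfn1, and in Tconv, Treg and TFR cells for Tmsb4x and Tmsb10. Differences between these treatment effects were not tested. Pfn1 (profilin 1, ENSMUSG00000018293.4, chromosome 11, 70651850 to 70654644, minus strand) loads monomers onto growing ends. In Tconv cells Pfn1 was at 798, 718 and 735 CPM in treated and 356, 333 and 387 CPM in control libraries. In Treg cells Pfn1 was at 713, 707 and 638 CPM in treated and 453, 435 and 427 CPM in control libraries. The groups did not overlap in either subset, and the treated libraries of both lay between 638 and 798 CPM. In TFH cells Pfn1 was at 865, 808 and 809 CPM in treated and 269.6, 355 and 332 CPM in control libraries. In TFR cells Pfn1 was at 876, 981 and 1046 CPM in treated and 389.96, 295 and 288 CPM in control libraries. Treated TFR libraries were the highest of all for Pfn1, and control TFR 1 stood above the other control TFR libraries. The log2FC was 1.06 ± 0.11, 0.65 ± 0.11, 1.38 ± 0.11 and 1.58 ± 0.11 in Tconv, Treg, TFH and TFR cells.

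Tmsb4x (thymosin beta-4, ENSMUSG00000049775.16, chromosome X, 167207093 to 167209315, minus strand) is the main monomer-sequestering peptide of lymphocytes. In Tconv cells Tmsb4x was at 2351, 2450.5 and 2488 CPM in treated and 803, 851 and 966 CPM in control libraries. In Treg cells Tmsb4x was at 1850.1, 1869 and 1837 CPM in treated and 942, 1005 and 1047 CPM in control libraries. These groups were far apart. In TFH cells Tmsb4x was at 1417, 1008 and 1178 CPM in treated and 983, 933 and 1152 CPM in control libraries. In TFR cells Tmsb4x was at 1551, 1583 and 1608 CPM in treated and 1087, 1158 and 1230.4 CPM in control libraries. The TFH groups overlapped, and the lowest treated library, TFH 2, lay within the control range. The log2FC was 1.48 ± 0.10, 0.89 ± 0.10, 0.23 ± 0.10 and 0.45 ± 0.10 in Tconv, Treg, TFH and TFR cells, and the TFH value ran from 0.066 to 0.34 over 16 other ways of processing.

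Tmsb10 (thymosin beta-10, ENSMUSG00000079523.8, chromosome 6, 72957347 to 72958748, minus strand) is a second sequestering peptide of the same family. In Tconv cells Tmsb10 was at 1607, 1536 and 1382 CPM in treated and 804, 757 and 897 CPM in control libraries. In Treg cells Tmsb10 was at 658, 724 and 651 CPM in treated and 478, 447 and 448 CPM in control libraries. Tconv libraries were the highest in both treatments. In TFH cells Tmsb10 was at 502, 423 and 489 CPM in treated and 386, 519 and 411 CPM in control libraries. In TFR cells Tmsb10 was at 575, 557 and 665 CPM in treated and 271, 234 and 303 CPM in control libraries. The TFH groups overlapped, with control TFH 2 above all treated TFH libraries. The log2FC was 0.88 ± 0.11, 0.57 ± 0.11, 0.11 ± 0.11 and 1.15 ± 0.11 in Tconv, Treg, TFH and TFR cells. Per kilobase, Tmsb4x to Tmsb10 was 0.992 ± 0.0589 in control and 1.51 ± 0.158 in treated Tconv cells, and 4.04 ± 0.490 and 2.47 ± 0.201 in TFR cells. The ratio was thus higher with treatment in Tconv and lower in TFR libraries, without overlap in either.

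Of the severing genes, Cfl1 was found in every library and Scin was not. Cfl1 (cofilin 1, ENSMUSG00000056201.7, chromosome 19, 5490455 to 5495201, plus strand) cuts aged filaments and frees monomers. In Tconv cells Cfl1 was at 918, 884 and 812 CPM in treated and 427, 424 and 506 CPM in control libraries. In Treg cells Cfl1 was at 732, 734 and 665 CPM in treated and 457, 452 and 437 CPM in control libraries. Treated and control ranges were clearly apart in both. In TFH cells Cfl1 was at 726, 792 and 674 CPM in treated and 307, 323 and 303 CPM in control libraries. In TFR cells Cfl1 was at 834, 943 and 972 CPM in treated and 334, 295 and 331 CPM in control libraries. As for Actb, the 2 follicular control groups lay below the other 2 control groups without overlap. The log2FC was 0.95 ± 0.086, 0.66 ± 0.086, 1.23 ± 0.087 and 1.52 ± 0.087 in Tconv, Treg, TFH and TFR cells. Cfl1 overlaps Snx32 on the opposite strand, and the strand setting of the counting is not given in the sources used here.

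Scin (scinderin, also called adseverin, ENSMUSG00000002565.16, chromosome 12, 40059769 to 40134228, minus strand) is a calcium-dependent severing protein of the gelsolin family. It was high in treated Treg and TFR cells and had no read in any control TFH library. In Treg cells Scin was at 118, 111 and 107 CPM in treated and 5.13, 7.45 and 3.06 CPM in control libraries. In TFR cells Scin was at 95.5, 115 and 113 CPM in treated and 15.8, 14.2 and 7.20 CPM in control libraries. Treated Treg and TFR libraries overlapped each other and exceeded all others. In Tconv cells Scin was at 12.1, 11.6 and 13.03 CPM in treated and 2.58, 4.67 and 1.30 CPM in control libraries. In TFH cells Scin was at 47.7, 37.4 and 34.4 CPM in treated libraries and at 0 reads in all 3 control libraries. Taking 3 reads over the control TFH group as the floor (0.130 CPM), treated TFH cells were at least 306-fold higher, a bound that covers counting error only. The log2FC was 2.10 ± 0.37 in Tconv, 4.42 ± 0.40 in Treg and 3.11 ± 0.38 in TFR cells. The Tconv value was 3.23 without the 2 control Tconv libraries with kidney transcripts, which leaves 1 control library at 1.30 CPM. The 3 control Tconv libraries together held 237 Scin reads and the 3 control Treg libraries 419.

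Coro1a and Arpc2 both act on branched networks, and only the first was clearly higher in every subset of treated mice. Coro1a (coronin 1A, ENSMUSG00000030707.15, chromosome 7, 126699773 to 126707787, minus strand) binds filaments in leukocytes and is needed for T cell survival. In Tconv cells Coro1a was at 921, 844 and 887 CPM in treated and 379, 369.8 and 507 CPM in control libraries. In Treg cells Coro1a was at 705, 730.3 and 622 CPM in treated and 466, 492 and 437 CPM in control libraries. Control Tconv 3, the control Tconv library without kidney transcripts, was the highest of its group. In TFH cells Coro1a was at 727, 676 and 647 CPM in treated and 281, 324 and 263 CPM in control libraries. In TFR cells Coro1a was at 655, 781 and 812 CPM in treated and 277, 319.9 and 413 CPM in control libraries. No treated group overlapped its control. The log2FC was 1.08 ± 0.13, 0.56 ± 0.13, 1.24 ± 0.13 and 1.16 ± 0.13 in Tconv, Treg, TFH and TFR cells. Coro1a overlaps Bola2 on the opposite strand, so some of its reads may belong to Bola2.

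Arpc2 (ENSMUSG00000006304.14, chromosome 1, 74236084 to 74268209, plus strand) is a core subunit of the Arp2/3 complex and had the narrowest range of the 10. In Tconv cells Arpc2 was at 474, 486 and 465 CPM in treated and 420.3, 422 and 477 CPM in control libraries. In Treg cells Arpc2 was at 412, 409 and 415 CPM in treated and 401, 446 and 422 CPM in control libraries. Both pairs of groups overlapped. In TFH cells Arpc2 was at 396, 374 and 387 CPM in treated and 339, 335 and 365 CPM in control libraries. In TFR cells Arpc2 was at 460.1, 491 and 481 CPM in treated and 285, 358 and 385 CPM in control libraries. The follicular groups did not overlap, although in TFH cells the gap was narrow. The log2FC was 0.11 ± 0.086, -0.037 ± 0.086, 0.15 ± 0.087 and 0.48 ± 0.086 in Tconv, Treg, TFH and TFR cells. The Arpc2 value in Tconv cells was -0.0067 without the control libraries with kidney transcripts. Cfl1 to Arpc2 per kilobase was 0.734 ± 0.0213, 0.760 ± 0.0480, 0.643 ± 0.0474 and 0.681 ± 0.137 in the 4 control groups and 1.31 ± 0.0689, 1.23 ± 0.0757, 1.36 ± 0.140 and 1.37 ± 0.0742 in the treated groups, in the same order. Per kilobase, the severing gene was thus below the branching gene in control and above it in treated libraries. Without dividing by exon length, mean Cfl1 was above Arpc2 in control Tconv (452 against 440 CPM) and Treg cells (449 against 423 CPM). It was below Arpc2 in control TFH and TFR cells. The order of the 2 genes in control cells thus depends on the exon lengths used.

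Rhob (ENSMUSG00000054364.5, chromosome 12, 8497661 to 8500009, minus strand) encodes a small GTPase found on endosomes. In Tconv cells Rhob was at 221, 212 and 223 CPM in treated and 138, 141 and 143 CPM in control libraries. In Treg cells Rhob was at 112, 116 and 106 CPM in treated and 107, 114 and 107 CPM in control libraries. Treg groups overlapped and Tconv groups did not. In TFH cells Rhob was at 287, 248 and 302 CPM in treated and 143, 112 and 121 CPM in control libraries. In TFR cells Rhob was at 85.3, 85.7 and 92.7 CPM in treated and 45.8, 45.4 and 48.3 CPM in control libraries. TFH libraries of treated mice were the highest of all, and even treated TFR libraries lay below every control Tconv, Treg and TFH library. The log2FC was 0.63 ± 0.090, 0.029 ± 0.090, 1.15 ± 0.092 and 0.92 ± 0.093 in Tconv, Treg, TFH and TFR cells.

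**Figure D3:**
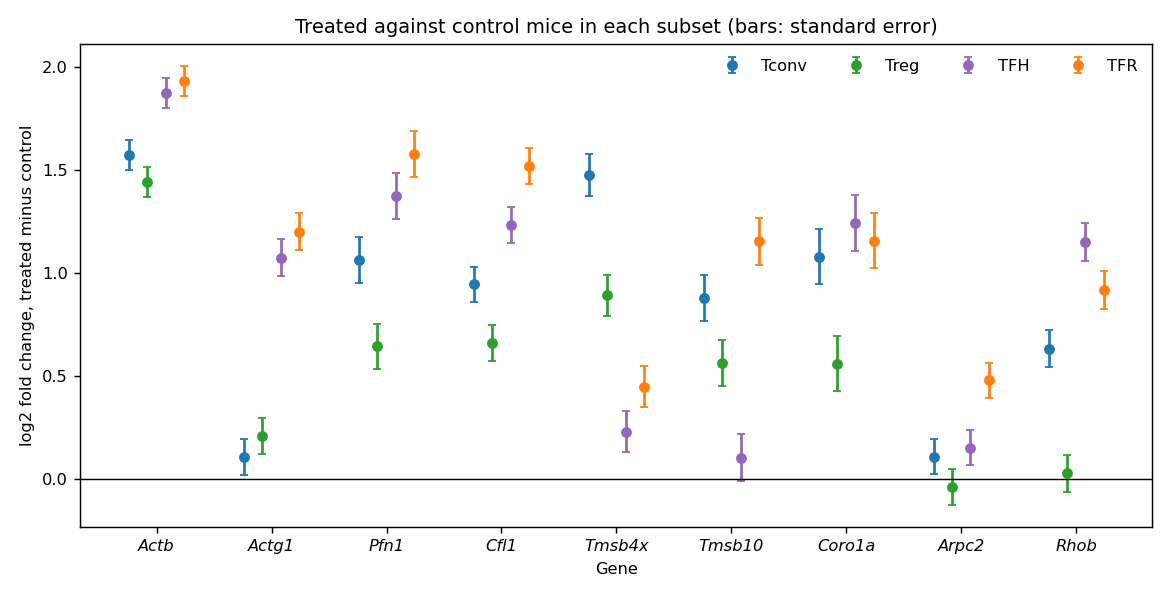
Log2 fold change of treated over control libraries (vertical axis) for 9 of the 10 genes (horizontal axis), with 1 point per subset and bars of 1 standard error. Scin is left out because control TFH libraries held no read of it. Of these 9, Actb has the highest value in every subset, and Arpc2 is at 0.15 or lower outside TFR cells.

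The subsets were then compared within control mice, a contrast that did not choose the genes (edgeR quasi-likelihood test, Benjamini-Hochberg adjustment over 18789 genes, threshold 0.05). The 2 follicular subsets held less of most actin genes than their non-follicular counterparts. In TFH against Tconv cells 7 of 10 fell and none rose, where 15.1% of all tested genes fell and 9.89% rose. In TFR against Treg cells 8 of 10 fell and 1 rose, where 7.46% of all genes fell and 2.28% rose. The median log2FC of the 10 was -0.49 and -0.45 in these 2 comparisons, beside -0.31 and -0.10 over all genes. Counts were lower for the other pairs. In Treg against Tconv cells 2 of 10 fell and none rose (3.4 and 5.9% of all genes), and in TFR against TFH cells 2 fell and 1 rose (8 and 7.82%). The comparisons share libraries, and the control follicular libraries were the smallest of the study.

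Actb itself was lower in control TFH than Tconv cells (2053 ± 147 against 2808 ± 67.7 CPM, log2FC -0.45 ± 0.070, adjusted p = 5.8e-05). It was lower in control TFR than Treg cells as well (log2FC -0.35 ± 0.070, adjusted p = 0.0029). Between Treg and Tconv cells the difference missed the threshold, with a 95% interval of the log2FC of -0.19 to 0.080, and between TFR and TFH cells the interval was -0.091 to 0.18. Actg1 was lower in TFH than Tconv cells (log2FC -0.66 ± 0.089, adjusted p = 8.9e-06) and in TFR than Treg cells (-0.72 ± 0.089, adjusted p = 2.9e-05). Cfl1 was lower in the same 2 comparisons (log2FC -0.54 ± 0.086, adjusted p = 7.8e-05, and -0.49 ± 0.086, adjusted p = 9.4e-04). These 6 calls held under each of 16 other ways of processing, which included leaving out each library in turn and all libraries with kidney transcripts.

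Tmsb10 was highest in control Tconv and lowest in control TFR cells. It was lower in Treg than Tconv cells (458 ± 17.5 against 819 ± 71.5 CPM, log2FC -0.84 ± 0.11, adjusted p = 1.5e-05) and in TFH than Tconv cells (log2FC -0.90 ± 0.11, adjusted p = 3.7e-06). TFR cells held less than Treg cells (log2FC -0.77 ± 0.11, adjusted p = 1.9e-04) and less than TFH cells (log2FC -0.70 ± 0.11, adjusted p = 3.6e-04). Its relative Tmsb4x did not pass in any of the 4 control comparisons, with adjusted p-values of 0.24, 0.095, 0.19 and 0.24. It passed for TFH against Tconv cells without control Tconv 3 (log2FC 0.31, adjusted p = 0.043), and by DESeq2 both there (0.043) and for TFR against Treg cells (0.012).

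Rhob was lowest in control TFR cells, whose 3 libraries lay between 45.4 and 48.3 CPM. The log2FC was -1.43 ± 0.095, adjusted p = 1.0e-08 against TFH cells and -1.23 ± 0.093, adjusted p = 4.7e-08 against Treg cells, and both calls held under all 16 alternatives. Treg cells were lower than Tconv cells by less (log2FC -0.37 ± 0.090, adjusted p = 0.0095), and that call was lost with fewer libraries at a log2FC of -0.39 when the kidney libraries, 2 of them control Tconv, were left out (adjusted p = 0.19). In TFH against Tconv cells Rhob did not pass (adjusted p = 0.17), except without control TFH 1 (adjusted p = 0.027).

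Scin was present in control TFR cells, at 12.4 ± 4.56 CPM, and had no read in control TFH cells. Against the floor of 3 reads over the TFH group, control TFR cells were at least 95.05-fold and control Tconv cells at least 21.9-fold higher, with adjusted p-values of 1.0e-06 and 1.4e-05. The Tconv comparison missed the threshold when only its 6 libraries were fitted (adjusted p = 0.12). Between TFR and Treg cells Scin passed narrowly (log2FC 1.26 ± 0.36, adjusted p = 0.034). It no longer did without control TFR 1, TFR 2, Treg 1 or Treg 3, with adjusted p-values of 0.1, 0.078, 0.092 and 0.14. Between Treg and Tconv cells it did not pass (adjusted p = 0.15) but did without control Tconv 2 (0.02) and without both control Tconv libraries with kidney transcripts (0.024).

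The remaining control calls were small, and each was lost under at least 1 alternative. Coro1a and Arpc2 were lower in TFH than Tconv cells (log2FC -0.54 ± 0.13, adjusted p = 0.0057, and -0.34 ± 0.087, adjusted p = 0.0062), and both missed the threshold when only the 6 libraries were fitted (adjusted p = 0.092 and 0.087). In TFR against Treg cells Pfn1 (log2FC -0.43 ± 0.11, adjusted p = 0.014) was lost without control TFR 2, TFR 3 or Treg 1, with adjusted p-values of 0.057, 0.065 and 0.052. Coro1a (log2FC -0.47 ± 0.13, adjusted p = 0.028) was lost there without control TFR 1, TFR 2, Treg 1 or Treg 2 (adjusted p = 0.11, 0.076, 0.068 and 0.097). Arpc2 (log2FC -0.31 ± 0.086, adjusted p = 0.028) was lost without control TFR 1, Treg 2 or Treg 3 (adjusted p = 0.1, 0.11 and 0.067). Actg1 did not pass between Treg and Tconv cells (log2FC 0.27 ± 0.088, adjusted p = 0.059), but it did without control Tconv 3 (0.017), with DESeq2 (0.016) and with only the 6 libraries fitted (0.041). Pfn1 passed there only with the 6 libraries (log2FC 0.28, adjusted p = 0.016).

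In treated mice, Actb passed in none of the 4 comparisons of subsets, while other members did. In Treg against Tconv cells 2 of 10 rose and 4 fell, where 6.37% of all genes rose and 5.54% fell. In TFH against Tconv cells 3 rose and 4 fell (10.3 and 7.77% of all genes). In TFR against Treg cells 2 rose and 1 fell (1.78 and 2.83%), and in TFR against TFH cells 5 rose and 1 fell (4.61 and 4.96%). The 95% interval of the Actb log2FC was -0.33 to -0.051 for Treg against Tconv, -0.29 to -0.016 for TFH against Tconv, 0.0044 to 0.28 for TFR against Treg and -0.031 to 0.24 for TFR against TFH cells. Without the libraries with kidney transcripts, the Treg against Tconv value of Actb passed (log2FC -0.19, adjusted p = 0.037), as it did with only the 6 libraries fitted (0.028). Whether a difference between subsets itself changed with treatment was not tested.

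Both thymosins were highest in treated Tconv cells. Tmsb10 was lower in treated TFH than Tconv cells (471 ± 42.4 against 1508 ± 115 CPM, log2FC -1.68 ± 0.11, adjusted p = 4.7e-10) and in Treg than Tconv cells (log2FC -1.15 ± 0.11, adjusted p = 1.4e-07). Tmsb4x was lower in TFH than Tconv cells (log2FC -1.02 ± 0.10, adjusted p = 1.2e-07). These 3 calls held under all 16 alternatives. Tmsb4x was also lower in Treg than Tconv cells (log2FC -0.39 ± 0.10, adjusted p = 0.0099), but not when mitochondrially encoded genes were left out of the scaling (log2FC -0.25, adjusted p = 0.15), a step that moved the median of all genes by 0.14. It was higher in TFR than TFH cells (log2FC 0.40 ± 0.10, adjusted p = 0.011), a call lost without treated TFH 2 (log2FC 0.28, adjusted p = 0.095). It also missed the threshold with fewer libraries at nearly the same log2FC, without the kidney libraries (0.40, adjusted p = 0.053) and with only the 6 libraries fitted (0.40, adjusted p = 0.099).

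Rhob in treated mice was lower in TFR than TFH cells (87.9 ± 4.15 against 279 ± 27.9 CPM, log2FC -1.67 ± 0.092, adjusted p = 1.6e-10) and in Treg than Tconv cells (log2FC -0.97 ± 0.091, adjusted p = 6.6e-08), and both calls held under all 16 alternatives. The higher level in TFH than Tconv cells (log2FC 0.35 ± 0.090, adjusted p = 0.0081) was lost without treated TFH 3 (adjusted p = 0.064), 1 of the kidney libraries. The lower level in TFR than Treg cells (log2FC -0.34 ± 0.090, adjusted p = 0.029) was lost without any one of the 6 libraries, with adjusted p-values from 0.052 to 0.15.

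Scin was highest in the 2 regulatory subsets of treated mice. It was higher in Treg than Tconv cells (112 ± 5.61 against 12.2 ± 0.729 CPM, log2FC 3.19 ± 0.38, adjusted p = 3.6e-06). TFR cells exceeded TFH cells (log2FC 1.44 ± 0.35, adjusted p = 0.011) and TFH cells exceeded Tconv cells (log2FC 1.70 ± 0.36, adjusted p = 0.0018). The TFR against TFH call was lost without treated TFH 2 (adjusted p = 0.056), and the other 2 held under all 16 alternatives. TFR against Treg cells did not pass, with a 95% interval of -0.73 to 0.62.

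Actg1 was higher in treated Treg than Tconv cells (log2FC 0.37 ± 0.088, adjusted p = 0.0053), which held under all 16 alternatives. Its higher level in TFH than Tconv cells (log2FC 0.30 ± 0.088, adjusted p = 0.019) was lost without treated TFH 2 or any one of the treated Tconv libraries, with adjusted p-values of 0.055 to 0.071. In TFR against TFH cells Actg1 (log2FC 0.34 ± 0.088, adjusted p = 0.013), Cfl1 (0.33 ± 0.085, adjusted p = 0.015) and Arpc2 (0.31 ± 0.086, adjusted p = 0.024) were higher. Each of these 3 was lost without treated TFH 3, TFR 2 or TFR 3, with adjusted p-values from 0.064 to 0.099, and Arpc2 also without TFH 2 (0.1). In TFR against Treg cells Pfn1 (log2FC 0.50 ± 0.11, adjusted p = 0.0081) and Cfl1 (0.37 ± 0.085, adjusted p = 0.012) were higher. Both were lost without treated TFR 3 (adjusted p = 0.062 and 0.086) or Treg 3 (0.06 and 0.089), and Cfl1 without TFR 2 (0.063).

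Cfl1 was lower in treated Treg than Tconv cells (log2FC -0.30 ± 0.085, adjusted p = 0.024), which was lost without treated Tconv 1, Tconv 2, Treg 1 or Treg 3 (adjusted p = 0.12, 0.085, 0.05 and 0.13). In TFH against Tconv cells it was lower too (log2FC -0.25 ± 0.085, adjusted p = 0.043), and this was lost without treated TFH 1, TFH 3, Tconv 1 or Tconv 2 (adjusted p = 0.09, 0.19, 0.17 and 0.12). Arpc2 was lower there (log2FC -0.30 ± 0.086, adjusted p = 0.018) and was lost without treated TFH 2, Tconv 1 or Tconv 2 (adjusted p = 0.063, 0.052 and 0.072). Over the 8 subset comparisons, 21 of 43 calls held under every alternative, 17 were lost without at least 1 library and none reversed.

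**Figure D4:**
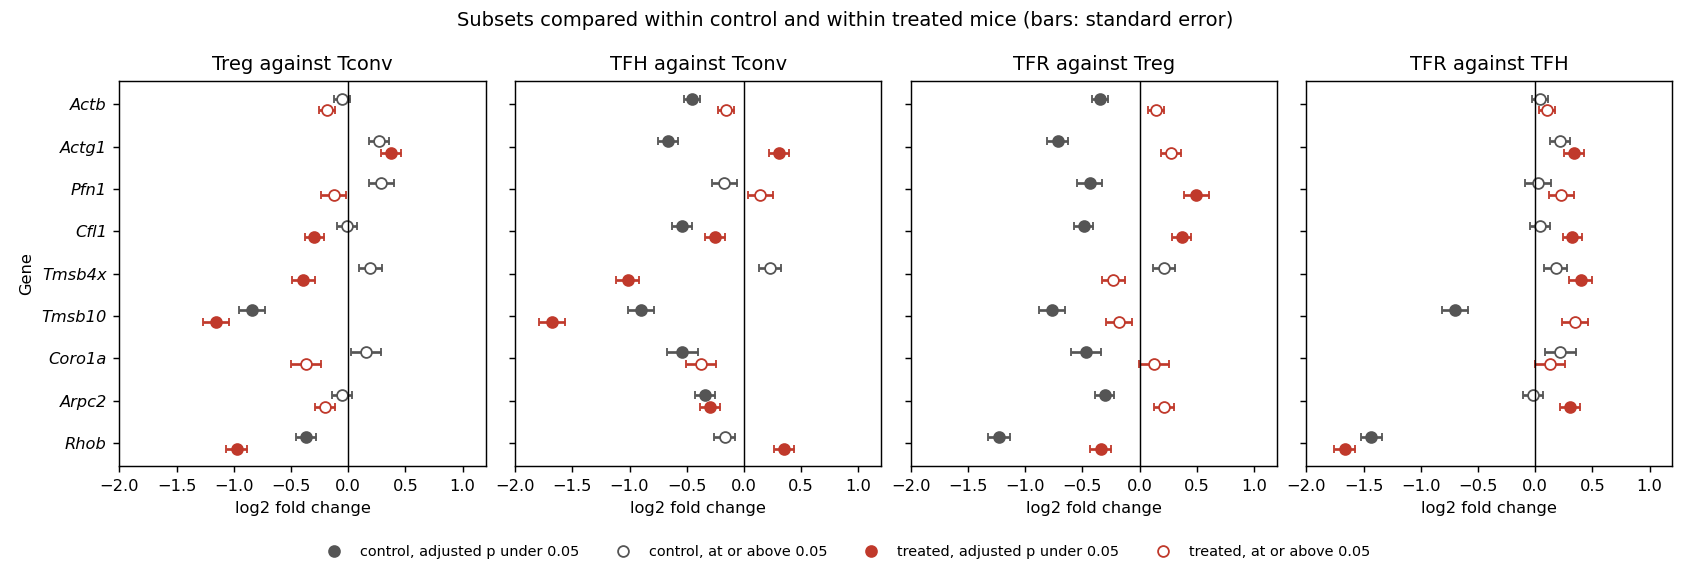
Log2 fold change (horizontal axis) of 9 genes (vertical axis) in 4 comparisons of subsets, grey within control and red within treated mice, with bars of 1 standard error and filled points where the adjusted p is under 0.05. Scin is left out because control TFH libraries held no read of it. Rhob lies far to the left for TFR against TFH cells in both treatments, and Tmsb10 for Treg and TFH against Tconv cells.

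The rest of the actin pathway was read from 12 lists of genes arranged by role, 148 genes in all, of which 147 were tested. In treated against control Tconv cells 47 rose and 14 fell, where 6.89% of all tested genes rose and 3.05% fell. In Treg cells 36 rose and 7 fell (5.17 and 3.56% of all genes). In TFH cells 55 rose and 11 fell (16.5 and 5.86%), and in TFR cells 50 rose and 9 fell (15.6 and 6.39%). The median log2FC of the 147 was 0.10, 0.24, 0.50 and 0.40 in Tconv, Treg, TFH and TFR cells, beside 0.020, 0.094, 0.42 and 0.40 over all genes. Without the kidney libraries 29 rose and 2 fell in Tconv cells. With only the 6 libraries of the comparison fitted, 17 rose and none fell in TFH cells (4200 of all genes passed in the full fit and 457 in this one). The counts of single lists stand beside these shares of all genes, and no list was tested against the other genes or lists. Of the 42 genes that the naming rule picked from the lists, calls that held under all 16 alternatives were 15 of 26 in Tconv, 20 of 25 in Treg, 12 of 32 in TFH and 25 of 30 in TFR cells. Without the kidney libraries 10 of the 26 Tconv calls were lost (Cap1, Add3, Arpc4, Actr2, Wasf2, Fmnl1, Vasp, Coro2a, Coro7 and Msn, adjusted p from 0.08 to 0.83). With only the 6 libraries fitted 20 of the 32 TFH calls were lost (adjusted p from 0.0503 to 0.32). They were Actg2, Acta1, Cap1, Wdr1, Twf1, Capzb, Add3, Actr3, Arpc4, Actr2, Cyfip2, Fmnl1, Evl, Vasp, Coro7, Coro1c, Rhoh, Arhgef6, Msn and Elk1.

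Several motor and crosslinking genes rose in every subset. Of 21 crosslinkers, tropomyosins and myosins, 12, 8, 9 and 12 rose and 3, 1, 3 and 1 fell in Tconv, Treg, TFH and TFR cells. The shares over all genes were 6.89, 5.17, 16.5 and 15.6% that rose and 3.05, 3.56, 5.86 and 6.39% that fell. Flna (filamin A, which ties filaments into a gel) had log2FC values of 1.11 ± 0.096, 0.94 ± 0.096, 1.197 ± 0.096 and 0.79 ± 0.096 in that order of subsets, with adjusted p-values of 2.9e-08, 4.8e-07, 9.3e-09 and 3.4e-06. Lcp1 (L-plastin, the bundling protein of leukocytes) had log2FC values of 0.87 ± 0.091, 0.94 ± 0.091, 0.65 ± 0.091 and 1.19 ± 0.092 (adjusted p = 5.5e-07, 2.8e-07, 2.7e-05 and 5.5e-09). Myh9 (the heavy chain of non-muscle myosin IIA) was at 3355 ± 264 against 1417 ± 81.3 CPM in TFH cells (log2FC 1.24 ± 0.11, adjusted p = 2.4e-08). Its Tconv call (log2FC 0.55 ± 0.10, adjusted p = 9.7e-04) was lost when only the 6 libraries were fitted (adjusted p = 0.072). Treated and control libraries did not overlap for these 3 genes in any subset. Of all genes, 27.5, 27.4, 28.5 and 33% were higher without overlap in Tconv, Treg, TFH and TFR cells. Nothing is read from this separation, since genes were named for a high mean or the smallest p in these comparisons.

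Rac2 and its partners were higher in treated mice in every subset. Rac2, the haematopoietic Rac that drives Arp2/3 activation, was at 749 ± 25.2 against 215 ± 35.9 CPM in treated against control Tconv cells. Its log2FC values were 1.80 ± 0.11, 0.96 ± 0.10, 1.56 ± 0.11 and 1.33 ± 0.11 (adjusted p = 1.0e-10, 1.2e-06, 7.8e-10 and 8.8e-09). Arhgdib, the haematopoietic inhibitor that keeps Rac in the cytosol, had log2FC values of 1.44 ± 0.10, 1.33 ± 0.10, 1.03 ± 0.10 and 1.55 ± 0.10 (adjusted p = 1.6e-09, 7.8e-09, 2.6e-07 and 6.6e-10). Dock2, the exchange factor that activates Rac in lymphocytes, had log2FC values of 1.16 ± 0.13, 1.34 ± 0.13, 1.36 ± 0.13 and 0.69 ± 0.13 (adjusted p = 9.0e-07, 1.8e-07, 1.0e-07 and 4.1e-04). These calls held under all 16 alternatives. Arhgef6, an exchange factor for Rac, rose in every subset too (log2FC 1.18 ± 0.083, 0.79 ± 0.082, 0.65 ± 0.084 and 0.46 ± 0.083, adjusted p = 1.4e-09, 7.0e-07, 8.6e-06 and 3.5e-04). Rhoh, a GTPase of blood cells needed for T cell receptor signalling, rose in Tconv, Treg and TFH cells (log2FC 1.18, 0.70 and 0.39), and its TFR value was 0.069 ± 0.098 (adjusted p = 0.63). Arhgap45, a GTPase-activating protein, rose in the same 3 subsets (log2FC 0.67, 0.38 and 0.56), with the Treg call lost without any one of 4 libraries (highest adjusted p 0.11). Rhog, another Rac activator, fell in Tconv cells (log2FC -0.63 ± 0.13, adjusted p = 0.0016) and Treg cells (-0.96 ± 0.13, 1.8e-05). Ssh2, a phosphatase that activates cofilin, fell in all 4 subsets, with log2FC values of -0.33, -0.68, -0.44 and -0.89 (adjusted p = 0.015, 1.1e-05, 0.00099 and 2.1e-07). It was singled out after its values were seen.

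Some Arp2/3 subunits other than Arpc2 passed as higher, and none as lower. Of 9 tested, 4, 1, 5 and 6 rose in Tconv, Treg, TFH and TFR cells, where 6.89, 5.17, 16.5 and 15.6% of all genes rose. The median log2FC of the 9 was 0.35, 0.19, 0.48 and 0.47, beside 0.020, 0.094, 0.42 and 0.40 over all genes. In TFH and TFR cells it was thus near that of all genes. Actr3, the actin-related core subunit, was at 715 ± 4.89 against 405 ± 35.2 CPM in Tconv cells. Its log2FC values were 0.82 ± 0.086, 0.65 ± 0.085, 0.39 ± 0.086 and 0.79 ± 0.086 (adjusted p = 5.1e-07, 1.7e-05, 0.0025 and 8.0e-07), and the TFH call was lost when only the 6 libraries were fitted (adjusted p = 0.14). Actr2, the other actin-related subunit, rose in Tconv, TFH and TFR cells (log2FC 0.62, 0.48 and 0.53) and was at 0.26 ± 0.11 in Treg cells (adjusted p = 0.2). Arpc4 rose in TFH and TFR cells (log2FC 0.91 ± 0.12 and 0.65 ± 0.11, adjusted p = 8.6e-06 and 2.9e-04), while its Tconv call (log2FC 0.38, adjusted p = 0.033) was lost under 11 of 16 alternatives. Of 19 nucleation promoting factors, 3, 1, 4 and 3 rose and 3, 1, 1 and 2 fell in Tconv, Treg, TFH and TFR cells. Of all genes 6.89, 5.17, 16.5 and 15.6% rose, and the list's shares in Treg and TFR cells were close to that. Wipf1, the partner that stabilises the Wiskott-Aldrich protein, rose in all 4 subsets (log2FC 0.95 ± 0.11, 0.50 ± 0.11, 1.28 ± 0.12 and 0.45 ± 0.11, adjusted p = 3.6e-06, 0.0058, 6.4e-08 and 0.0068), although not in TFR cells when only those 6 libraries were fitted (adjusted p = 0.059). Wasl, the widely expressed relative of that protein, fell in TFR cells (41.6 ± 2.04 against 91.4 ± 6.74 CPM, log2FC -1.13 ± 0.17, adjusted p = 4.8e-05). Wasf2, a subunit of the WAVE complex that activates Arp2/3, fell in Treg cells (181 ± 7.50 against 264 ± 26.5 CPM, log2FC -0.55 ± 0.088, adjusted p = 1.9e-04) and in Tconv cells (log2FC -0.33 ± 0.088, adjusted p = 0.017), the second call being lost without any one of 5 libraries. Cyfip2, another subunit of that complex, rose in TFH cells (log2FC 0.46 ± 0.15, adjusted p = 0.029), a call lost without control TFH 2, treated TFH 1 or treated TFH 2.

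Of 14 monomer-binding and severing genes outside the 10, 2, 2, 2 and 3 rose and 0, 1, 2 and 2 fell in Tconv, Treg, TFH and TFR cells, and in TFH cells the share that rose was close to the 16.5% of all genes. Cap1, which recycles monomers with cofilin, rose in all 4 (log2FC 0.71 ± 0.12, 0.42 ± 0.12, 0.45 ± 0.12 and 0.43 ± 0.12, adjusted p = 3.1e-04, 0.033, 0.012 and 0.014), with the Treg call lost without any one of its 6 libraries and the TFH call without treated TFH 1. Wdr1, which helps cofilin take filaments apart, rose in all 4 (log2FC 0.64 ± 0.086, 0.46 ± 0.086, 0.42 ± 0.087 and 0.55 ± 0.086, adjusted p = 1.8e-05, 0.001, 0.0016 and 8.4e-05), although not in TFH cells when only those 6 libraries were fitted (adjusted p = 0.15). Twf1, a monomer-binding protein, fell in TFH cells (54.2 ± 5.46 against 103 ± 15.2 CPM, log2FC -0.92 ± 0.14, adjusted p = 7.1e-05) and TFR cells (log2FC -0.55 ± 0.14, adjusted p = 0.0067), in both cases not when only the 6 libraries were fitted (adjusted p = 0.0503 and 0.076). 

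Of 12 capping genes, 2, 2, 2 and 3 rose and 0, 1, 0 and 0 fell, again with the TFH share close to the 16.5% of all genes. Capg, a capping protein of the gelsolin family like Scin, rose in Treg (148 ± 14.002 against 79.9 ± 6.87 CPM, log2FC 0.89 ± 0.17, adjusted p = 0.0015) and TFR cells (164 ± 13.9 against 82.2 ± 12.4 CPM, 0.996 ± 0.18, adjusted p = 2.8e-04). Capzb, the beta subunit of the capping protein, rose in TFH and TFR cells (log2FC 0.61 ± 0.12 and 0.85 ± 0.12, adjusted p = 6.9e-04 and 1.7e-05), although not in TFH cells when only those 6 libraries were fitted (adjusted p = 0.15). Add3, an adducin, of a family that caps filaments under the membrane, rose in all 4 subsets (log2FC 0.75 ± 0.13, 0.45 ± 0.13, 0.52 ± 0.14 and 0.85 ± 0.14, adjusted p = 4.8e-04, 0.036, 0.0086 and 1.0e-04), with the Treg call lost without any one of its 6 libraries and the TFH call without treated TFH 1. Add1, a second adducin, fell in Treg cells (208 ± 7.57 against 312 ± 12.2 CPM, log2FC -0.58 ± 0.13, adjusted p = 0.0065), under all 16 alternatives.

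Of 12 formins and elongation factors, 4, 3, 4 and 2 rose and 1, 0, 1 and 0 fell, with the TFR share that rose close to the 15.6% of all genes. Evl and Vasp, relatives that lengthen filaments at growing ends, and the formin Fmnl1 were among them. Evl rose in all 4 subsets (log2FC 1.08 ± 0.12, 0.98 ± 0.12, 0.68 ± 0.12 and 0.40 ± 0.12, adjusted p = 9.2e-07, 4.6e-06, 2.9e-04 and 0.018), with the TFR call lost without control TFR 3, treated TFR 2 or treated TFR 3. Vasp rose in Tconv, TFH and TFR cells (log2FC 0.77, 0.69 and 0.64, adjusted p = 0.0015, 0.003 and 0.0046). Fmnl1 rose in Tconv, Treg and TFH cells (log2FC 0.57, 0.38 and 0.63, adjusted p = 0.0022, 0.045 and 5.9e-04), and the Treg call was lost without any one of 5 libraries.

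Of 5 coronins other than Coro1a, 2 rose in each subset and 1 fell in Tconv cells. Among all genes 6.89, 5.17, 16.5 and 15.6% rose in Tconv, Treg, TFH and TFR cells, and 3.05% fell in Tconv cells. Coro2a was at 89.7 ± 10.7 against 25.6 ± 11.8 CPM in TFR (log2FC 1.80 ± 0.27, adjusted p = 5.4e-05) and 104 ± 5.80 against 38.9 ± 9.30 CPM in Treg cells (log2FC 1.42 ± 0.27, adjusted p = 1.0e-03). It rose in Tconv cells as well (log2FC 1.11 ± 0.27, adjusted p = 0.0094), a call lost without control Tconv 1 or treated Tconv 1. Coro7 rose in Treg cells (138 ± 5.94 against 68.9 ± 4.95 CPM, adjusted p = 0.005), in TFH cells (log2FC 1.23 ± 0.23, adjusted p = 5.6e-04) and in Tconv cells (log2FC 0.78 ± 0.22, adjusted p = 0.026), the last call being lost without any one of 5 libraries. Coro1c rose in TFH and TFR cells (log2FC 0.85 ± 0.21 and 0.79 ± 0.21, adjusted p = 0.0068 and 0.0098). Coro1b, the most abundant of the 5, passed in no subset (adjusted p = 0.15, 0.85, 0.093 and 0.32).

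Of 9 membrane and adhesion linkers, 3, 2, 6 and 6 rose and 2, 1, 1 and 0 fell in Tconv, Treg, TFH and TFR cells. Over all genes the shares were 6.89, 5.17, 16.5 and 15.6% that rose and 3.05, 3.56, 5.86 and 6.39% that fell. Vim, the intermediate filament protein vimentin, was at 937 ± 56.1 against 264 ± 25.2 CPM in Treg cells, with log2FC values of 1.61 ± 0.14, 1.83 ± 0.14, 0.90 ± 0.14 and 1.63 ± 0.14 (adjusted p = 4.6e-08, 1.0e-08, 1.1e-04 and 4.2e-08). Tln1, which joins integrins to filaments, had log2FC values of 0.51 ± 0.086, 0.54 ± 0.086, 1.11 ± 0.087 and 0.67 ± 0.086 (adjusted p = 2.7e-04, 1.7e-04, 6.1e-09 and 7.6e-06). Treated libraries exceeded control libraries in all 4 subsets for both genes, as they did for 27.5, 27.4, 28.5 and 33% of all genes. Nothing is read from this either, since the naming rule used these comparisons. Msn (moesin, which anchors filaments to the membrane) rose in Tconv, TFH and TFR cells (log2FC 0.37, 0.57 and 0.50, adjusted p = 5.7e-04, 3.2e-06 and 1.4e-05). Zyx (zyxin, found at adhesions) rose in TFH cells (105 ± 19.1 against 38.0 ± 1.62 CPM, log2FC 1.47 ± 0.15, adjusted p = 2.5e-07) and TFR cells (log2FC 0.76 ± 0.14, adjusted p = 5.8e-04).

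Of SRF and its cofactors, the transcriptional arm of the pathway, some passed in follicular cells, where more of all genes passed too. None of 5 passed in Tconv or Treg cells, 2 rose in TFH cells, and 1 rose and 2 fell in TFR cells. Of all genes, 16.5% rose and 5.86% fell in TFH cells, and 15.6% rose and 6.39% fell in TFR cells. The shares were 6.89 and 3.05% in Tconv and 5.17 and 3.56% in Treg cells. Srf itself was at 82.2 ± 7.39 against 34.7 ± 5.32 CPM in TFH cells (log2FC 1.23 ± 0.15, adjusted p = 5.6e-06). In TFR cells it was at 72.4 ± 5.50 against 51.3 ± 11.1 CPM (log2FC 0.50 ± 0.15, adjusted p = 0.02), a call lost under 7 of 16 alternatives, with adjusted p-values up to 0.12. Mrtfa, the cofactor that actin monomers hold back, fell in TFR cells (94.3 ± 7.30 against 143 ± 7.45 CPM, log2FC -0.60 ± 0.11, adjusted p = 2.7e-04). The ETS cofactors of SRF passed in 1 subset each. Elk1 rose in TFH cells (19.9 ± 3.32 against 5.58 ± 1.65 CPM, log2FC 1.80 ± 0.30, adjusted p = 1.9e-04), a call lost when only the 6 libraries were fitted (adjusted p = 0.15). Elk4 fell in TFR cells (185 ± 14.1 against 287 ± 45.4 CPM, log2FC -0.63 ± 0.12, adjusted p = 8.3e-04). In Tconv and Treg cells the log2FC of Srf was 0.38 ± 0.15 and 0.25 ± 0.15, which did not pass (adjusted p = 0.12 and 0.41). The difference between subsets was not tested.

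**Figure D5:**
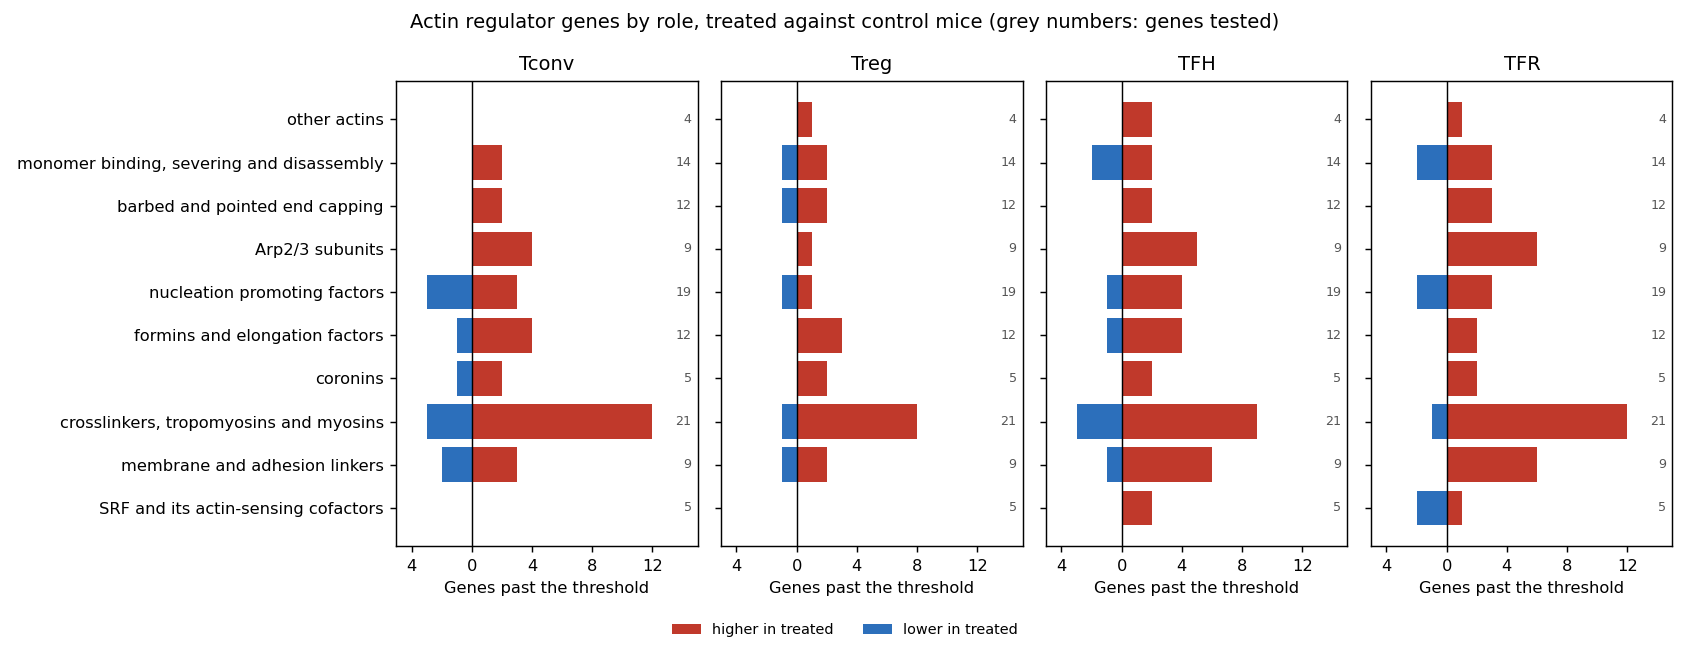
Number of genes in each of 10 of the 12 role lists (vertical axis) that rose (red, to the right) or fell (blue, to the left) in treated against control mice at an adjusted p under 0.05, in 4 subsets. Grey numbers give the genes tested in each list. Of the lists shown, crosslinkers with myosins hold the most genes that rose, up to 12 of 21.

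Muscle actins were at low levels. Of 4 such genes, 0, 1, 2 and 1 rose in Tconv, Treg, TFH and TFR cells and none passed as lower, where 6.89, 5.17, 16.5 and 15.6% of all genes rose. Actg2, the enteric gamma-actin, was at 9.43 ± 0.869 against 0.700 ± 0.364 CPM in Treg cells (log2FC 3.75 ± 1.04, adjusted p = 0.031, lost without any one of the 6 libraries, highest adjusted p 0.13). In TFR cells Actg2 was at 13.2 CPM in treated and had no read in control libraries, at least 109-fold higher against 3 reads over the group. In TFH cells Actg2 and Acta1 had no read in control libraries and were at 2.51 and 1.03 CPM in treated libraries (adjusted p = 0.0031 and 0.039). The Acta1 call was lost under 10 of 16 alternatives, and the Actg2 call when only the 6 libraries were fitted (adjusted p = 0.14). Acta2 passed in no subset in the main fit. In Tconv cells its log2FC was -4.47, and -5.04 to -3.97 without single libraries. Its lowest adjusted p over the alternatives was 0.016. Smooth muscle and fibroblast markers summed to 3.90 to 4.89 CPM in treated and 5.51 to 137 CPM in control Tconv libraries. Their part in the Acta2 value was not tested. Smooth muscle and fibroblast markers summed to 3.36 to 61.9 CPM in treated and 0 to 1.14 CPM in control TFR libraries, with 7 and 2 of 7 markers detected. Treated TFR 1 was 1 of the kidney libraries. Detection also depends on depth, which was 35.4 to 50.9 M counts in treated and 4.85 to 9.62 M in control TFR libraries. Myh11, Cnn1, Des, Col1a1 and Pdgfrb were at 0 in control TFR libraries. Their part in the Actg2 result was not tested. Values of these genes are uncertain, since their sequences are near-identical to other actins.

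The 147 pathway genes were compared between subsets too. In control TFH against Tconv cells 27 rose and 27 fell (9.89 and 15.1% of all genes), and in control TFR against Treg cells 3 rose and 17 fell (2.28 and 7.46%). In control Treg against Tconv cells 25 rose and 10 fell (5.9 and 3.4%), and in TFR against TFH cells 15 rose and 8 fell (7.82 and 8%). In treated mice 22 rose and 16 fell for Treg against Tconv (6.37 and 5.54%) and 28 and 20 for TFH against Tconv cells (10.3 and 7.77%). There were 3 and 13 for TFR against Treg (1.78 and 2.83%) and 16 and 20 for TFR against TFH cells (4.61 and 4.96%). The median log2FC of the 147 was -0.063 for control TFH against Tconv cells, beside -0.31 over all genes, and -0.082 for control TFR against Treg cells, beside -0.10.

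Over all 24 libraries, several genes outside the set tracked the level of Actb about as closely as the nearest members did. Among 8756 genes with a mean of at least 10 CPM, the 8 outside the set with the highest Pearson correlation of log2(CPM + 1) with Actb were Anxa6 (0.967), Atp2a3 (0.960), Hspd1 (0.956), Nup210 (0.954), Sh3bp1 (0.954), Pcna (0.954), Rac2 (0.952) and Flna (0.951). Anxa6, a calcium-dependent membrane-binding annexin, was at 616 ± 29.8 CPM in treated and 231 ± 26.0 CPM in control Tconv cells. Within the set the correlation with Actb was 0.971 for Cfl1, 0.960 for Pfn1 and 0.946 for Coro1a, and it was lower for Scin (0.791), Actg1 (0.782), Tmsb4x (0.765), Arpc2 (0.590), Tmsb10 (0.582) and Rhob (0.504). These are descriptions over 24 libraries in which treatment, depth and mitochondrial share move together.

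The level of Scin had other companions. The 5 genes most like it were Hist1h2an (0.939), Cdc6 (0.939), Hist1h2bb (0.926), Ldha (0.926) and Ckap2l (0.926), over the same 24 libraries and 8756 genes. Cdc6, which licenses replication origins, was at 50.7 ± 3.15 CPM in treated TFR, 26.6 ± 0.406 CPM in treated Treg, 20.4 ± 3.09 CPM in treated TFH and 5.03 ± 0.282 CPM in treated Tconv cells. In control cells Cdc6 was at 10.3 ± 5.60, 5.66 ± 1.97, 1.10 ± 1.29 and 2.81 ± 0.140 CPM in the same order. Ldha, the lactate dehydrogenase of glycolysis, was at 826 ± 54.1 CPM in treated and 246 ± 10.3 CPM in control TFR cells. Correlations of Scin with Tmsb10 (0.103) and Rhob (-0.014) were near 0.

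Markers of other cell types that the sorted samples could hold were read beside these results. CD8 and NK cell markers summed to 78.2 to 89.6 CPM in treated and 3.65 to 5.02 CPM in control TFH libraries, with Cd8a and Ncr1 at 0 in both. In TFR cells they summed to 64.3 to 71.4 CPM in treated and 0.484 to 9.66 CPM in control libraries, with Cd8a at 0 in both and Ncr1, Klrd1 and Nkg7 at 0 in control libraries. The sums were 26.8 to 29.2 against 14.7 to 24.6 CPM in Tconv and 21.8 to 24.2 against 12.1 to 19.7 CPM in Treg cells. Of the 4 such markers tested, 1, 1, 3 and 3 rose in Tconv, Treg, TFH and TFR cells, and 1 fell in Treg cells. Beside these and the marker counts that follow, 6.89, 5.17, 16.5 and 15.6% of all genes rose. The shares that fell were 3.05, 3.56, 5.86 and 6.39%, in the same order. Myeloid and dendritic cell markers summed to at most 6.23 CPM in treated and 6.86 CPM in control libraries, and in TFH cells to 4.12 to 6.23 against 0 to 0.477 CPM. Of 7 tested, 0, 1, 2 and 0 rose and none fell. Platelet markers summed to at most 8.68 CPM in treated and 21.8 CPM in control libraries, and of 3 tested none rose, while 1 fell in TFH and 1 in TFR cells. The part of CD8, NK or myeloid cell RNA in the actin values was not tested. Without the 4 kidney libraries the log2FC of Actb was 1.60 in Tconv, 1.44 in Treg, 1.87 in TFH and 1.99 in TFR cells. None of the 4 is a Treg library, so the Treg value is that of the full set of Treg libraries. Without all 6 libraries with proximal tubule transcripts, treated Treg 3 among them, it was 1.60, 1.49, 1.87 and 1.99 in the same order.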

How the data were processed

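The authors deposited 1 table of raw counts per gene for 24 libraries. RNA was column-purified with DNase digestion, and libraries were made with a total RNA kit after depletion of ribosomal RNA, per the labels' protocols. STAR, featureCounts and the build mm10 are named in the submitters' processing notes; versions, strand setting and annotation release: not given in the sources used here. Gene IDs were matched to GENCODE M21 without the version suffix: 38872 of 39056 matched, 4573 of them with another version. All numbers here were computed from those counts.

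Genes were filtered with filterByExpr, scaled by TMM and fitted over all 24 libraries with 1 mean per group by edgeR 4.0.16 (quasi-likelihood test, Benjamini-Hochberg adjustment over 18789 genes, threshold 0.05) in R 4.3.3. CPM are relative to TMM-scaled totals. The procedure was tested on simulated data. Alternatives were DESeq2 1.42.0, other scalings, no filter, each library left out, libraries with kidney transcripts left out (summed podocyte markers over 10 CPM and at least 10 times the group's lowest library), a fit of only the 6 libraries compared, and a replicate block. Leaving out libraries with proximal tubule transcripts and thinning libraries to the smallest total were added after seeing the data. Intervals and floors cover counting error or spread between libraries only, and the smallest libraries limit the precision of control TFH and TFR values. Replicates differed by more than counting noise, and each library counted as 1 sample.

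The 10 genes, the pathway lists and the marker lists were chosen with earlier results of these data known. Of each pathway list the text names the gene with the highest mean CPM and the 3 with the smallest p over the treatment comparisons (42 genes), and others only where stated. Likeness to Actb or Scin is Pearson's r of log2(CPM + 1). Results that need some marker genes or gene lists are not reported here.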

Additional observations from a re-analysis of the deposited data

How the results depend on the processing

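No called result reversed under any alternative, while values near 0 changed sign for Actg1 and Arpc2 in Tconv cells (lowest -0.045 and -0.0067), Arpc2 in Treg cells (highest 0.052) and Rhob in Treg cells (lowest -0.0039). The Actb difference in Tconv cells was 1.47 with DESeq2 and with relative log expression factors, 1.49 with only the 6 libraries fitted and 1.51 without mitochondrially encoded genes in the scaling, each further from the reported value than 1 SD between replicates. Of the 147 pathway genes, the count lower in treated Tconv cells was 25 with DESeq2, 27 with the 6 libraries, 2 without the kidney libraries, 2 without the proximal tubule libraries, and 2 to 17 when single libraries were left out; the count higher was 29 without the kidney libraries. With only the 6 libraries fitted, 57 were higher and 25 lower in Treg cells and 17 higher and 0 lower in TFH cells. Of the 10 actin genes, the 6-library fits called 4 for Treg against Tconv control, 4 for TFH against Tconv control, 5 for TFR against Treg control and 6 for TFR against Treg treated cells, where DESeq2 called 5. For TFH against Tconv treated cells 4 were called without the kidney libraries, 4 without the proximal tubule libraries and 4 to 6 without single libraries. Without single libraries, 0 to 2 were called for TFR against Treg treated and 3 to 7 for TFR against TFH treated cells. The cause of these changes was not tested. Labels give replicate numbers but no pairing, and in none of the 12 comparisons were the correlations of same-numbered libraries all over 0.1 (they ran from -0.69 to 0.56). With the replicate block, 314 of 316 results kept their call, the adjusted p of Cfl1 for TFH against Tconv treated cells became 0.062, and that of Fmnl1 in treated Treg cells 0.067. Depth limits control TFH and TFR values most, with 2.54 M counts in the smallest library. Counts of all genes called, with their range over the alternatives, were 1868 (636 to 4832), 1640 (1086 to 5804), 4200 (457 to 5575) and 4134 (2223 to 5710) for treated against control mice in Tconv, Treg, TFH and then TFR cells. For Treg against Tconv, TFH against Tconv, TFR against Treg and TFR against TFH cells they were 1747 (914 to 3104), 4701 (716 to 6192), 1831 (423 to 3036) and 2973 (181 to 4623) in control and 2238 (1578 to 9167), 3404 (2183 to 7599), 866 (487 to 6087) and 1798 (1033 to 4253) in treated mice.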
